A study of Homo sapiens with 10 samples.

Results

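The regions described here are internal exons that lie far from where transcription begins. They are the merged exons of protein-coding genes on chromosomes 1 to 22 that were more than 5 kb from every annotated transcript start and were not the last exon of their gene. Overlapping exons of a gene's transcripts were merged, and 63337 of 233804 merged exons (27.1%), in 9894 of 19229 genes, met the rule. Each was set against a piece of the same length from the middle of a usable intron stretch of the same gene. The nearest such stretch downstream was taken, or the nearest upstream where none lay downstream. The stretch was also over 5 kb from every start and free of exons of any gene. Such a piece was found for 63213 exons in 9844 genes. It lay downstream of 62416 exons and upstream of 797, at a median of 1083 bp from the exon, and 2981 pieces overlapped the next one. The median exon was 130 bp long and 11894 bp from the nearest start, and 77.7% of the exons were wholly coding. The median GC content was 45.8% in exons and 40.9% in intron pieces, and the median observed over expected ratio of CpG pairs was 0.302 and 0.159.

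RNA polymerase II (Pol II) that starts a transcript often halts a short way into the gene and moves on once P-TEFb, a kinase whose catalytic subunit is Cdk9, phosphorylates the polymerase and its pausing factors. Much of the cell's P-TEFb is held inactive in the 7SK ribonucleoprotein, where Hexim1 inhibits the kinase and Larp7 binds and stabilises the 7SK RNA. KAP1, the product of TRIM28, is a chromatin co-regulator best known for silencing through zinc finger proteins. The study asks about KAP1, the 7SK complex and Pol II at human genes, and its title concerns promoters. Internal exons lie in the stretch that elongating Pol II crosses, where the spliceosome defines exons while the RNA is still attached to chromatin.

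The cells were HCT116, an established line from a human colorectal carcinoma, grown in standard medium with no treatment named. Chromatin was crosslinked with 1% formaldehyde for 10 min and sonicated to 100 to 300 bp, and 5 of the 10 libraries of the series were used: total Pol II (by the N-20 antibody), KAP1, Larp7, Hexim1 and Cdk9. Not analysed here were the input library, those of H3K27ac, H3K4me1 and H3K4me3, and that of Ser5P Pol II. On chromosomes 1 to 22 the lists held 91692 Pol II, 60660 KAP1, 182444 Larp7, 227631 Hexim1 and 118666 Cdk9 peaks, with median widths of 287, 515, 471, 454 and 428 bp. Every antibody had 1 library and the read depth is unknown, so no value has a replicate check and there are no p-values. Intervals are exact (Clopper-Pearson) 95% intervals that cover counting error only, and they are too narrow to the extent that exons of 1 gene share a peak. The labels give the cell type as endothelial, while Pol II peaks lay within 1 kb of the 5′ end of 10 of 12 colon epithelium marker genes and 3 of 11 endothelium marker genes.

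Exons with the strongest KAP1 signal show what these sites look like in sequence. The first 3 sequences are the wholly coding exons of at most 200 bp with peaks of all 5 factors that had the highest KAP1 fold, the deposited ratio of a peak over its background. Exon bases are in capitals and 20 bases of intron on each side are in lower case. All lines run 5′ to 3′ on the strand of the gene, in hg19 (GRCh37).
FAM184B exon 13 of 18, chr4:17643679-17643851, minus strand: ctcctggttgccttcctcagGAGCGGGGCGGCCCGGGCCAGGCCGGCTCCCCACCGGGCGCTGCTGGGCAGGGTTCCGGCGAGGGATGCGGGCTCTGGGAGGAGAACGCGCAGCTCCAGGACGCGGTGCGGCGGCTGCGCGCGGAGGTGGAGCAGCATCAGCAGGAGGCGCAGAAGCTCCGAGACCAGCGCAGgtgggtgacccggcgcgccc
ITPR3 exon 22 of 59, chr6:33638942-33639083, plus strand: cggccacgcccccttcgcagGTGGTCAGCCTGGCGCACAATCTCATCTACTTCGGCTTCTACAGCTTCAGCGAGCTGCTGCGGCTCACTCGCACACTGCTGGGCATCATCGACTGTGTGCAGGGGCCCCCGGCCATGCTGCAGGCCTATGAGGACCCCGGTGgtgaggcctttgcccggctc
ZNF236 exon 33 of 36, chr18:74667941-74668138, plus strand: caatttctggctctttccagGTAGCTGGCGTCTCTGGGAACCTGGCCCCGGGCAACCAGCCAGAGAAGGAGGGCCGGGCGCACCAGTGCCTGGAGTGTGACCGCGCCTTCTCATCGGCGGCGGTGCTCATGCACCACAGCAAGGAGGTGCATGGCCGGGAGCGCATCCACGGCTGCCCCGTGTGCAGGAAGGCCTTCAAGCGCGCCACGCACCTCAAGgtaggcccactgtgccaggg
FAM184B intron piece matched to the first exon, chr4:17642263-17642435, minus strand: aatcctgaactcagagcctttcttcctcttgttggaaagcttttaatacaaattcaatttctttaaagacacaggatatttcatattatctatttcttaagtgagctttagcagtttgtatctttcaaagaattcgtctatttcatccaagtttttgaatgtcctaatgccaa
FAM184B exon 9 of 18, chr4:17661581-17661710, minus strand: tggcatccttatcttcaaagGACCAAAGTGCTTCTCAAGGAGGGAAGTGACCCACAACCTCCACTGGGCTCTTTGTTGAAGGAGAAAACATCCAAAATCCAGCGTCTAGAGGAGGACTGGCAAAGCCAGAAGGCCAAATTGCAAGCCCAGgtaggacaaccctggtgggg

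The 3 exons were 173, 142 and 198 bp long, with a GC content of 76.3%, 63.4% and 68.7%, and lay 11132, 26822 and 18508 bp from the nearest start. The FAM184B exon had a KAP1 fold of 7.16, a Pol II fold of 26.4, a Hexim1 fold of 8.36, a Larp7 fold of 5.52 and a Cdk9 fold of 4.75. The KAP1 peak over it ran from 17643583 to 17643948, 366 bp. Its matched intron piece had a GC content of 31.2% and no peak of any factor. Exon 9 of the same gene, shown after its values were seen, had a GC content of 51.5% and no peak of any factor either. The ITPR3 exon, in the gene of an inositol trisphosphate receptor, had a KAP1 fold of 7.12 and a Pol II fold of 16.3. The ZNF236 exon, in a zinc finger gene, had a KAP1 fold of 6.68 and a Pol II fold of 7.15. The AG before an exon and the GT after it stood at nearly all exons, so they could not separate occupied exons from free ones. Among wholly coding exons with exact borders, AG preceded 99.7% of the 1474 with all 5 factors and 99.8% of the 41270 with none. GT followed 98.8% and 98.9%.

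Far internal exons were overlapped less often than exons at large. A Pol II peak overlapped 2848 of the 63337 exons (4.50%), against 19.2% of all merged exons of coding genes. KAP1 overlapped 3247 (5.13%), against 17.3%, and Cdk9 overlapped 4508 (7.12%), against 20.6%. Larp7 overlapped 7502 (11.8%), against 28.0%, and Hexim1 overlapped 7780 (12.3%), against 29.5%. The merged exons within 5 kb of a start, first and last exons included, carried Pol II in 25.2% of cases and KAP1 in 22.2%. They had Larp7 in 34.4%, Hexim1 in 36.3% and Cdk9 in 26.0%. The threshold itself marked no step among merged exons of any place in the gene, last exons included. Of the 7862 such exons at 5 to 6 kb, 8.47% had Pol II, 7.98% KAP1 and 18.3% Hexim1. Of the 9724 at 4 to 5 kb, 9.09%, 8.89% and 19.9% had them.

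Pol II and KAP1 were found more often at exons than at intron pieces of the same genes. Pol II overlapped 4.45% of exons (4.29 to 4.61) and 2.37% of intron pieces (2.26 to 2.50), a ratio of 1.87 and a difference of 2.07 percentage points (1.93 to 2.21). KAP1 overlapped 5.09% of exons (4.92 to 5.26) and 2.66% of intron pieces (2.54 to 2.79), a ratio of 1.91 and a difference of 2.43 points (2.29 to 2.56). The kinase Cdk9 overlapped 7.07% of exons and 5.22% of intron pieces, a ratio of 1.35 and a difference of 1.85 points (1.65 to 2.05). Larp7 overlapped 11.8% of exons and 10.1% of intron pieces, a ratio of 1.17 and a difference of 1.68 points (1.43 to 1.93). Hexim1 overlapped 12.2% of exons and 12.5% of intron pieces, and the difference of -0.258 points had an interval from -0.533 to 0.0176. In the full lists, the 2 proteins of the 7SK complex, whose lists were the longest, had the highest shares at these exons. Their exon to intron ratios were the nearest to 1 there, and for the inhibitor Hexim1 the interval of the difference included 0. Compared within deciles of the regions' own GC content, the difference was 0.69 points for Pol II and 0.787 for KAP1, and it turned negative for Larp7 (-3.01) and Cdk9 (-0.734) and was -5.48 for Hexim1. With 20000 peaks per list, the Pol II difference was 0.258 points and that of Hexim1 0.675. The order of the ratios then changed, and that of Pol II was the nearest to 1. The ratios were 1.57 for Pol II, 1.68 for Hexim1, 1.78 for Larp7, 2.08 for Cdk9 and 2.35 for KAP1. Among peaks with a −log10 q of 5 or more, KAP1 lay at 0.282% of exons and 0.0981% of intron pieces, a ratio of 2.87 and a difference of 0.184 points, and Cdk9 at 0.218% and 0.0570%, a ratio of 3.83 and a difference of 0.161 points. With that limit Hexim1 lay at 6.27% of exons and 4.16% of intron pieces, a ratio of 1.51 and a difference of 2.11 points.

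**Figure D1:**
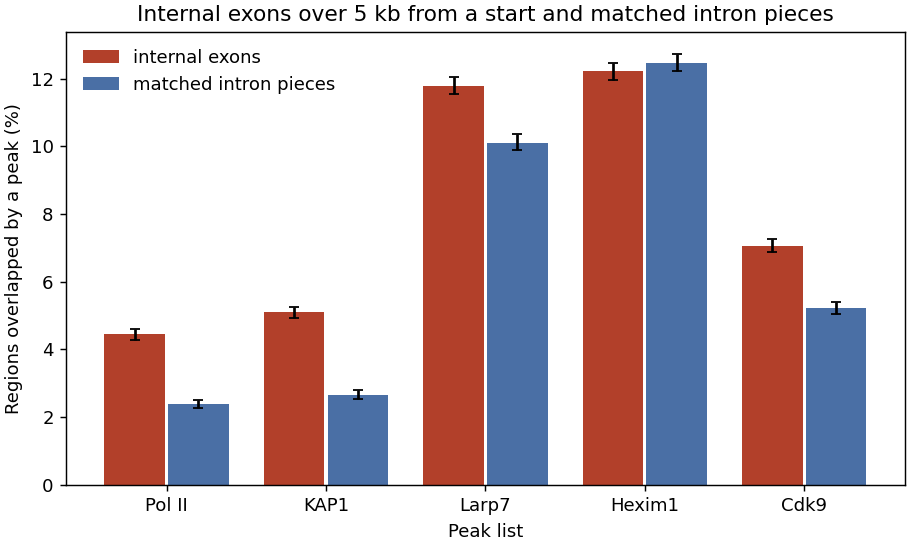
Share of internal exons (left bar of each pair) and of their matched intron pieces (right bar) overlapped by at least 1 bp of a peak, in percent, for each of the 5 peak lists. Error bars are exact 95% intervals for counting error. The Pol II bars stand at 4.45% and 2.37%, the KAP1 bars at 5.09% and 2.66%, and the Hexim1 bars at 12.2% and 12.5%.

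The pairs behind these shares show the same order. Pol II was at the exon alone in 2009 pairs, at the intron piece alone in 700 and at both in 801. KAP1 was at the exon alone in 2116 pairs, at the intron piece alone in 582 and at both in 1102. Larp7 had 3852 pairs with the exon alone and 2790 with the intron piece alone, Cdk9 had 2753 and 1583, and Hexim1 had 3819 and 3982. Counted in bases, peaks covered more of the exons for every factor: 3.84% of exon bases and 1.39% of intron piece bases for Pol II, 4.66% and 1.88% for KAP1, 6.28% and 3.60% for Cdk9, 10.5% and 7.51% for Larp7, and 11.03% and 9.61% for Hexim1. Hexim1 peaks thus covered a larger share of exon bases than of intron bases, although the shares of regions touched were close.

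Peaks over exons were about as strong as those over introns for Pol II and KAP1. The median Pol II fold was 6.85 at overlapped exons and 6.72 at overlapped intron pieces, and the median KAP1 fold was 4.15 and 4.07. The median was 4.31 and 3.84 for Larp7, 4.60 and 3.76 for Hexim1, and 3.82 and 3.58 for Cdk9. Only a small part of each list lay here: 2740 Pol II peaks (2.99% of the list), 2503 KAP1 peaks (4.13%), 5403 Larp7 peaks (2.96%), 5662 Hexim1 peaks (2.49%) and 3492 Cdk9 peaks (2.94%). The Hexim1 peaks at exons were wider than the list, with a median of 965 bp against 454 bp, as were the Larp7 peaks (876 against 471 bp) and the Cdk9 peaks (659 against 428 bp). Pol II peaks at exons were 286 bp wide at the median, against 287 bp in the list, and KAP1 peaks 580 bp, against 515 bp. A peak that touches a far exon can reach towards a start: the strongest peak came within 5 kb of a start at 4.48% of overlapped exons and 5.80% of overlapped intron pieces for Pol II, 9.45% and 15.0% for KAP1, and 16.4% and 15.5% for Hexim1.

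Pol II and KAP1 peaks sat on the exon, not only near it. Around 32668 exons of at most 300 bp with no other exon within 1 kb, Pol II covered the middle of 1.86% of exons, against 0.735% at 1000 bp upstream and 0.762% at 1000 bp downstream, a ratio of 2.48. KAP1 covered the middle of 2.38%, against 0.915% and 0.943% at the same distances, a ratio of 2.57. Middles of KAP1 peaks fell within 100 bp of the exon middle 4.13 times as often per 50 bp as at 750 to 1000 bp, and middles of Pol II peaks 3.02 times as often. Cdk9 covered 3.48% of middles, against 2.37% and 2.42% (ratio 1.45), and Larp7 covered 6.77%, against 5.50% and 5.76% (ratio 1.20). Hexim1 covered 7.40% of middles, against 7.82% and 7.89% (ratio 0.942). For both 7SK proteins the coverage dipped just outside the exon: at 200 bp upstream and downstream it was 5.14% and 5.44% for Larp7, and 5.92% and 6.31% for Hexim1. The Pol II summit, the position of highest signal, lay inside the exon at 1586 of 2810 overlapped exons (56.4%, 54.6 to 58.3) and inside the piece at 482 of 1501 overlapped intron pieces (32.1%, 29.8 to 34.5).

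**Figure D2:**
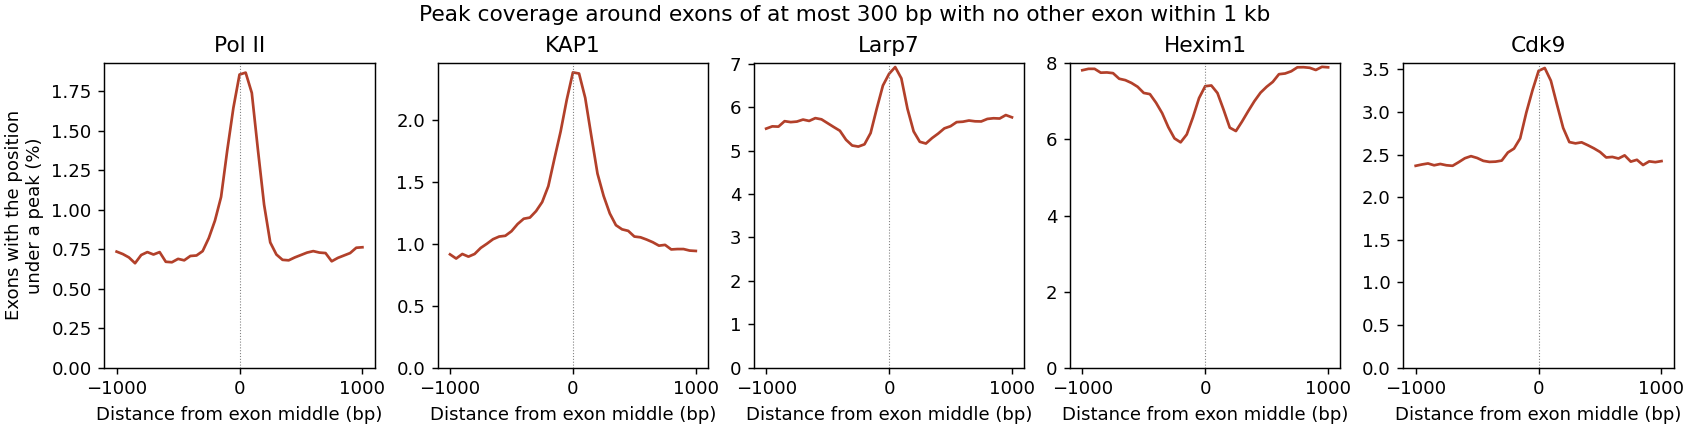
Percentage of 32668 internal exons whose position at a given distance from the exon middle (in bp, 5′ to 3′ along the gene) was under a peak, 1 panel for each list, each with its own vertical axis from 0. Pol II reaches 1.86% and KAP1 2.38% at the middle; the Hexim1 line is at 7.40% there, with lower values just outside the exon and 7.82% and 7.89% at the ends.

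Occupied exons were GC-rich. The median GC content was 63.5% in exons with Pol II and 45.3% in those without, and 63.3% and 45.2% for KAP1. Exons with all 5 factors had a median of 64.7%, against 45.5% in the rest. Among exons with a GC content of 65% or more, 59.0% had Pol II, 63.9% KAP1, 69.9% Cdk9, 86.3% Larp7 and 85.8% Hexim1. Among the intron pieces of that GC content the shares were 42.2% for Pol II, 49.4% for KAP1, 60.7% for Cdk9, 77.8% for Hexim1 and 76.9% for Larp7. At a GC content of 40 to 45%, Pol II overlapped 0.165% of exons, against 0.734% of such intron pieces, and KAP1 overlapped 0.136%, against 0.674%. Hexim1 overlapped 1.95% of exons and 7.95% of intron pieces in that range, and 8.48% and 22.4% at 50 to 55%. Exons thus exceeded intron pieces for all 5 factors at a GC content of 60% or more, and were below them for all 5 between 35 and 55%.

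The surroundings gave a like picture, in a comparison added after the data were seen. Exons and pieces were placed in 10 deciles by the GC content of the 1 kb around their middle, where the medians were 40.1% for exons and 40.9% for intron pieces. In the highest decile, from 54.3% upward, Pol II overlapped 33.1% of exons and 18.9% of intron pieces. KAP1 overlapped 38.4% and 25.3% there, Larp7 71.4% and 59.5%, Hexim1 71.3% and 59.0%, and Cdk9 47.6% and 35.1%. This decile held 84.8% of the exons with Pol II and 86.1% of those with KAP1. Across the lower 8 deciles, below 48.7%, Hexim1 overlapped 2.44% of exons (2.30 to 2.58) and 6.35% of intron pieces (6.14 to 6.57), and Larp7 overlapped 1.86% and 4.04%. Pol II overlapped 0.229% of exons and 0.561% of intron pieces in these deciles, Cdk9 0.834% and 1.73%, and KAP1 0.217% and 0.308%. Hexim1 was thus more frequent at exons than at intron pieces in the most GC-rich stretches, and less frequent at exons in the lower 8 deciles. GC content also bears on sequencing and alignment, and its part in these shares was not tested.

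**Figure D3:**
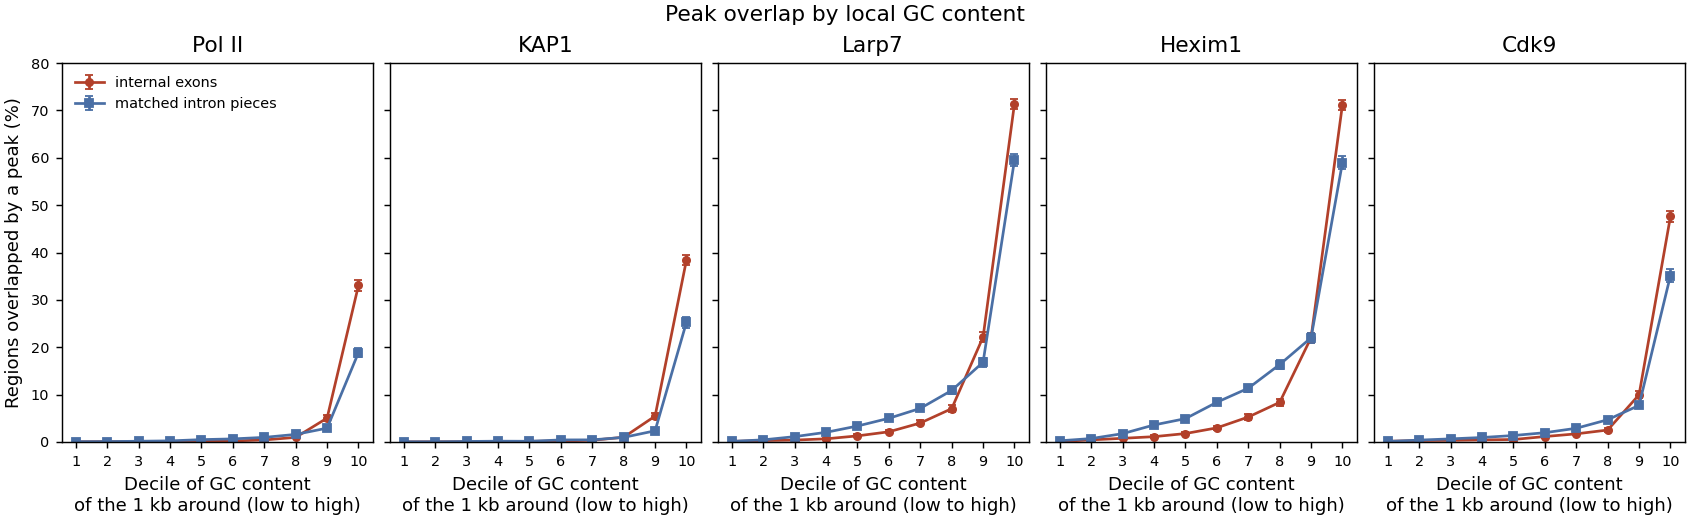
Share of internal exons (circles) and matched intron pieces (squares) overlapped by a peak, in percent, by decile of the GC content of the 1 kb around, from low to high, 1 panel for each list. Error bars are exact 95% intervals for counting error. In the highest decile exons lie above intron pieces in every panel (Hexim1 71.3% and 59.0%), while across the lower 8 deciles together Hexim1 overlapped 2.44% of exons and 6.35% of intron pieces.

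CpG pairs separated the GC-rich regions further. Among exons of at least 200 bp with a GC content of 50% or more, the share with Pol II was 7.05% where the observed over expected CpG ratio was under 0.3, 23.6% at 0.3 to 0.6 and 52.5% at 0.6 or more. The matching intron pieces had Pol II in 9.26%, 17.7% and 26.1% of cases. KAP1 gave 8.60%, 25.4% and 54.3% of exons, and 10.5%, 19.3% and 25.2% of intron pieces. The last class held 798 exons and 111 intron pieces. Exons of the same CpG ratio but a GC content under 50% rarely had either factor, with Pol II at 4 of 262 and KAP1 at 3 of 262.

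Factors often occurred together on the same exons. All 5 overlapped 1781 exons (2.82%, 2.69 to 2.95) and 675 intron pieces (1.07%, 0.989 to 1.15), a ratio of 2.64. Hexim1 alone, with none of the others, was at 1332 exons (2.11%) and 2925 intron pieces (4.63%), a ratio of 0.455, and Larp7 alone was at 1.75% and 2.65%. Some factor was at 9549 exons (15.1%) and 10725 intron pieces (16.97%), so exons carried any peak slightly less often but the full set more often. Where Pol II was present, KAP1 was too at 70.5% of exons and 50.7% of intron pieces, and Cdk9 at 80.5% and 63.8%. Where KAP1 was present, Pol II was at 61.5% of exons and 45.2% of intron pieces. Hexim1 peaks had Pol II with them at 35.3% of exons and 16.1% of intron pieces, and Larp7 peaks at 36.5% and 19.1%. Pol II without any of the other factors was seen at 48 exons and 137 intron pieces.

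The contrast was larger for exons of 200 bp and more than for the shortest exons. Below 100 bp, Pol II overlapped 1.74% of exons and 1.54% of intron pieces, and Hexim1 7.68% and 9.93%. From 100 to below 200 bp Pol II overlapped 4.21% and 2.33%. From 200 to below 500 bp it overlapped 8.01% and 2.81%, a difference of 5.20 points (4.75 to 5.60), with KAP1 at 8.65% and 3.09% and Hexim1 at 17.3% and 14.2%. From 500 to below 1000 bp the KAP1 shares were 11.7% and 3.36%, and at 1000 bp or more 9.92% and 5.39%. The 2 regions of a pair have equal length, but they were not matched on GC content within these classes.

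The contrast of Pol II and KAP1 was seen at coding exons. Pol II overlapped 4.71% of the wholly coding exons and 2.30% of their intron pieces, and KAP1 5.51% and 2.74%. Of the 5924 exons with no coding base, Pol II overlapped 1.32%, against 1.18% of their intron pieces, and KAP1 overlapped 1.47% of both. Hexim1 overlapped 7.66% of these non-coding exons, against 9.45% of their intron pieces, a difference of -1.79 points (-2.65 to -0.914). Exons that some annotated transcripts skip had Pol II less often than those in every transcript that spans them, at 3.12% against 4.87%, and KAP1 at 3.56% against 5.56%. Their intron pieces had Pol II at 1.88% and 2.33%, and the KAP1 ratio of exon to intron piece was 2.09 in skipped exons and 2.02 in the others. Among wholly coding exons whose length is a multiple of 3, Pol II overlapped 4.85%, against 4.61% of those whose length is not.

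The share of occupied exons was lower farther from the nearest start, and the exon to intron ratio of Pol II was higher in each class out to 100 kb. At 5 to 10 kb Pol II overlapped 6.08% of exons and 3.59% of intron pieces, a ratio of 1.70. At 10 to 20 kb it overlapped 4.09% and 2.13%, at 20 to 50 kb 2.67% and 0.939%, and at 50 to 100 kb 1.60% and 0.457%, a ratio of 3.50. KAP1 overlapped 6.49% and 3.70% at 5 to 10 kb and 2.90% and 1.24% at 50 to 100 kb. Hexim1 was below the introns at 5 to 10 kb, at 15.5% and 16.0%, and above them at 50 to 100 kb, at 6.59% and 5.06%, a difference of 1.53 points (0.570 to 2.45). Beyond 100 kb there were 758 pairs, and the interval of the difference included 0 for every factor. Compact genes were the most occupied: in genes under 25 kb Pol II overlapped 11.6% of exons and 7.68% of intron pieces, and in genes over 200 kb 1.93% and 0.631%. Within 5 kb of the gene's end Pol II overlapped 10.3% of exons and 6.99% of intron pieces, and over 100 kb from it 1.29% and 0.545%.

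Genes with Pol II at a start had more occupied exons than genes without, and the exon shares of Pol II, KAP1, Larp7 and Cdk9 exceeded the intron shares in both. For Hexim1 they were 13.4% of exons and 13.6% of intron pieces with Pol II at a start, and 6.49% and 6.80% without, with intervals of the difference that included 0. Where a Pol II peak lay within 1 kb of a start of the gene, Pol II overlapped 5.05% of exons and 2.75% of intron pieces, and KAP1 5.69% and 3.004%. In genes with no Pol II at any start, Pol II overlapped 1.41% of 10557 exons and 0.512% of their intron pieces, and KAP1 2.10% and 0.966%. In the highest decile of surrounding GC content of these genes without Pol II at a start, Pol II overlapped 15.2% of 824 exons (12.8 to 17.8) and 6.82% of 616 intron pieces (4.96 to 9.10), and KAP1 22.6% and 12.5%. In the lower 8 deciles of the same genes, Pol II overlapped 6 of 8615 exons (0.0696%, 0.0256 to 0.152). It overlapped 6 of 8952 intron pieces there (0.0670%, 0.0246 to 0.146). KAP1 overlapped 7 of these exons (0.0813%) and 11 of these intron pieces (0.123%). These counts are too few to tell whether an excess was present. In those deciles of genes with Pol II at a start, Pol II overlapped 0.262% of exons and 0.665% of intron pieces, so the exon share was the lower one.

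The exon share was the higher one on 22 of 22 chromosomes for Pol II and for KAP1, on 19 for Cdk9, on 17 for Larp7 and on 9 for Hexim1. The interval of the Pol II difference included 0 on chromosome 3 (-0.106 to 0.737 points), chromosome 14 (-0.110 to 1.48) and chromosome 18 (-0.0355 to 1.21). The mean difference over chromosomes was 2.57 ± 2.74 points for Pol II, 3.003 ± 2.67 for KAP1, 2.32 ± 2.36 for Cdk9, 2.11 ± 2.84 for Larp7 and 0.0333 ± 2.01 for Hexim1 (SD, n = 22 chromosomes, which are not replicates). Chromosome 19, where the median exon had a GC content of 55.7%, stood apart: Pol II overlapped 20.4% of its exons and 7.75% of its intron pieces, and KAP1 20.0% and 8.00%. On chromosome 18, with a median of 44.1%, Pol II overlapped 1.24% of exons and 0.543% of intron pieces. Without chromosome 19 the Pol II difference was 1.73 points and the KAP1 difference 2.12 points, in a comparison added after the data were seen. The largest Hexim1 difference was on chromosome 22, at 33.7% of exons and 27.1% of intron pieces.

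**Figure D4:**
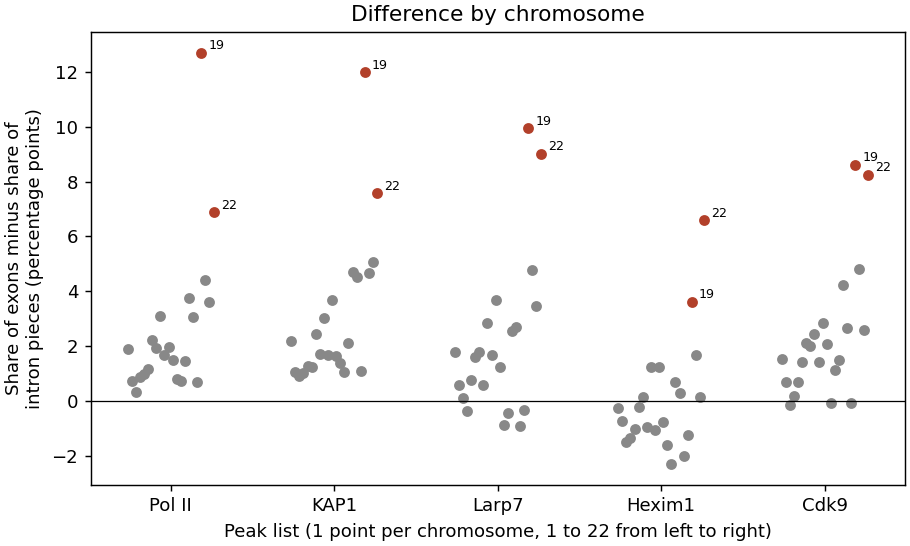
Share of exons minus share of intron pieces, in percentage points, for each list, with 1 point per chromosome from 1 to 22 (left to right) and chromosomes 19 and 22 in red. All 22 points lie above 0 for Pol II and for KAP1, and 9 of 22 do for Hexim1; the chromosome 19 point for Pol II is at 12.7.

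Exons with Pol II or KAP1 lay in a minority of the genes. Pol II overlapped an exon in 1333 of 9844 genes (13.5%), and 265 genes held 50% of the exons it overlapped. For KAP1 these were 1395 genes (14.2%) and 250. How many genes hold 50% of all far internal exons was not counted, so these values have no baseline. Pol II overlapped more exons than intron pieces in 1045 genes and fewer in 395, and KAP1 in 1114 and 290. Hexim1 did the reverse, with more exons in 1638 genes and more intron pieces in 2080. Exons under a peak that also covered another such exon made up 18.6% of those with Pol II, 37.7% of those with KAP1 and 44.2% of those with Larp7.

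The 6 genes with the most exons under all 5 factors were PLEC, MEGF6, ITPR3, KIF26A, PLXNA1 and TNRC18. In PLEC, which encodes the cytoskeletal linker plectin, all 21 exons carried all 5 factors. All 21 intron pieces had KAP1, Larp7, Hexim1 and Cdk9, and 16 had Pol II. Few peaks made up this count: 1 KAP1 peak of 31428 bp, 1 Larp7 peak of 44741 bp, 1 Hexim1 peak of 50816 bp and 1 Cdk9 peak of 33857 bp covered the whole set, and a Pol II peak of 18078 bp covered 15 of its exons. MEGF6 was different, with Pol II at 17 of 18 exons in 14 peaks and at 8 of 18 intron pieces, and KAP1 at 16 exons in 9 peaks and at 10 intron pieces. In ITPR3, Pol II was at 32 of 54 exons and 19 intron pieces, Hexim1 at 42 and 28, and KAP1 at 15 and 10. KIF26A, a kinesin family gene, had Pol II at 12 of 12 exons and 11 intron pieces. PLXNA1, a receptor for semaphorins, had Pol II at 15 of 20 exons and 15 intron pieces. TNRC18 had Pol II at 13 of 13 exons, in 11 peaks, and at 6 intron pieces. The median GC content of the exons was between 59.0% in ITPR3 and 69.9% in KIF26A in these 6 genes.

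Exons with the highest Pol II fold lay between 5163 bp (FAAP100) and 11551 bp (PDZD7) from a start. NR2F6, an orphan nuclear receptor gene, led with a Pol II fold of 111 over exon 4 of 5 (chr19:17346308-17346874, GC content 75.3%), 7243 bp from the nearest start, with KAP1 at a fold of 6.21 and no Pol II peak on its intron piece. FAAP100, a Fanconi anemia core complex gene, followed at 81.3, where a Pol II peak of 6376 bp also covered the intron piece. TEX22 had 69.4, PRR7 62.3, PDZD7 61.9 and NOXA1, an NADPH oxidase activator, 60.4, and in all 4 the same Pol II fold stood at the intron piece. The PRR7 exon ends at 176881041 and its peak begins at 176881027, so they share only the last bases.

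The 6 exons with the highest KAP1 fold lay under KAP1 peaks of 248 to 662 bp. GRIN2D, an NMDA receptor subunit gene, had the highest, 8.03, over exon 4 of 14 (chr19:48907991-48908610), under a KAP1 peak of 465 bp, with a Pol II fold of 30.6 and a Hexim1 fold of 11.04; its intron piece had Hexim1 alone, at 3.13. MYO9B, an unconventional myosin gene, had a KAP1 fold of 7.97 and SPTBN4, a spectrin gene, 7.84, and FAM184B and ITPR3 came next. RYR1, the calcium release channel of skeletal muscle, had 7.10 over exon 48 of 109, under a peak of 248 bp. None of the intron pieces of these 6 exons had a Pol II or KAP1 peak. All 6 exons carried all 5 factors, with Pol II folds between 5.17 in SPTBN4 and 30.6 in GRIN2D.

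The leading exons of the 7SK proteins and Cdk9 differed from those of Pol II and KAP1, except in GRIN2D. TRPM2, a cation channel gene, had the highest Larp7 fold, 9.67, 22151 bp from a start, then KIAA1549L with 9.39 at 50665 bp and LIMCH1 with 9.35 at 31024 bp. Hexim1 was highest over an exon of EPHA8, an ephrin receptor gene, with a fold of 11.7 where KAP1 had 4.11 and Pol II had no peak. The GRIN2D exon that led for KAP1 came next, at 11.04, and then DRAXIN, a guidance factor gene, at 10.6. Cdk9 was highest over RNFT2 with 7.27, BANP with 7.24 and BMPER, a BMP regulator, with 7.05, and the BMPER exon again had no Pol II peak. No factor had a peak on the intron pieces of TRPM2, KIAA1549L, LIMCH1, EPHA8, BANP or BMPER. Their intron pieces had a GC content between 32.3% in LIMCH1 and 54.7% in EPHA8, and the exons between 58.9% and 64.4%.

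Genes of epithelial adhesion and the cytoskeleton had the highest exon shares of Pol II and KAP1 among 7 gene lists. Pol II lay at a start of 25 of 26 such genes. Their 302 exons had Pol II at 17.9% (13.7 to 22.7) and their intron pieces at 8.28% (5.43 to 12.0), with KAP1 at 14.2% and 9.27%. PLEC gave 21 of the 54 exons with Pol II, and without it Pol II was at 11.7% of 281 exons and 3.20% of intron pieces, and KAP1 at 7.83% and 2.49%. ACTN4, an actinin gene, had Pol II at 4 of 6, and LAMA5, a laminin chain gene, at 3 of 5. Transcription and splicing genes, with Pol II at a start in 14 of 14 genes, had it at 5.51% of 127 exons and 4.72% of intron pieces, and KAP1 at 3.15% and 6.30%. POLR2B, a subunit of Pol II itself, had Pol II at 1 of 6 exons, and CDC73, of the elongation factor PAF1 complex, at 1 of 13. Replication and repair genes, with Pol II at a start in 23 of 23 genes, had it at 2.84% of 176 exons (0.929 to 6.50) and 5.68% of intron pieces (2.76 to 10.2). The exons with Pol II lay in 3 genes of this list. Among its genes of at least 5 exons, PRKDC had the highest Pol II share, at 1 of 21 exons. The others of that size had none, among them ATM at 0 of 7 and ATR at 0 of 10.

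Exons of genes of other tissues were set beside the 4.45% of all far internal exons with Pol II and the 5.09% with KAP1. The Pol II share was near that level in muscle genes and below it in the neuronal, fibroblast and endothelium lists. Muscle contraction genes, with Pol II at a start in 10 of 26, had Pol II at 4.79% of 710 exons (3.34 to 6.63) and 0.986% of intron pieces (0.397 to 2.02), and KAP1 at 6.76% and 2.11%. LDB3, a gene of the muscle Z-disc, had Pol II at 2 of 5 exons and 1 intron piece. Neuronal genes had Pol II at 2.64% of 531 exons and 1.13% of intron pieces, with CACNA1B, a calcium channel gene, at 6 of 40 and 4, CACNA1A at 3 of 8 and 2, and UNC13A, a gene of vesicle priming, at 3 of 25 and 0. Fibroblast matrix genes had Pol II at 1.42% of 351 exons and 0.570% of intron pieces, and KAP1 at 5.13% and 3.99%. Without COL5A1, KAP1 was at 0.968% of 310 exons and 0.968% of intron pieces, and Pol II at 0.645% and 0.645%. COL5A1, a fibrillar collagen gene with a median exon GC content of 66.7%, had Larp7 at 33 of 41 exons, KAP1 at 15 and Pol II at 3, while COL11A1 and COL12A1 had no factor at any of 52 and 21 exons. Endothelium genes had Pol II at 1.18% of 169 exons and 0 intron pieces, which allows up to 2.16%; both exons were in VWF, the clotting factor carrier, with ANGPT2 and EMCN at 0 of 7 and 0 of 10.

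**Figure D5:**
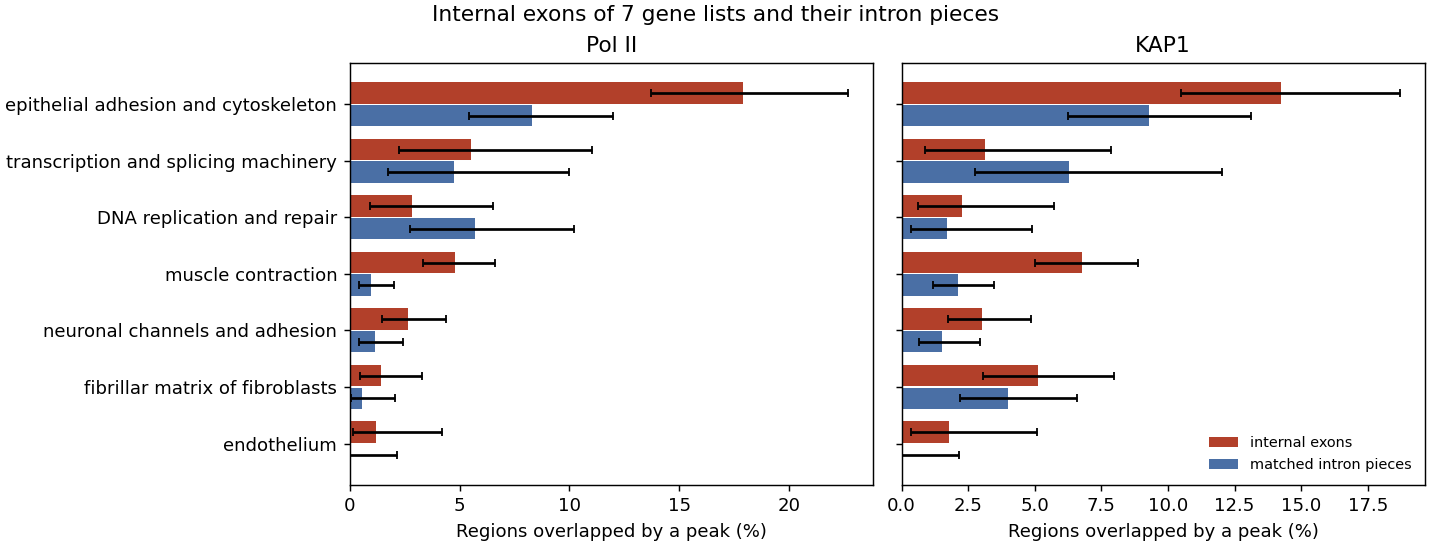
Share of internal exons (upper bar of each pair) and of matched intron pieces (lower bar) overlapped by a Pol II peak (left panel) or a KAP1 peak (right panel), in percent, for 7 gene lists. Error bars are exact 95% intervals for counting error; the Pol II bars of the muscle contraction genes are at 4.79% and 0.986%, and those of the epithelial genes at 17.9% and 8.28%.

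A few long genes, chosen after their values were seen, show the range between genes. RYR1 had some factor at 39 of 59 exons, which had a median GC content of 62.2%, against 54.4% in the other 20, while Pol II was at 9 and KAP1 at 11. TTN, the giant sarcomere gene, had no factor at any of its 77 exons, whose median GC content was 44.4%, and NEB had only a Hexim1 peak at 1 of 94. Neither had Pol II at a start. BRCA2 did, and its 17 exons, with a median GC content of 36.7%, had no factor. COL11A1, also without Pol II at a start, had a median of 57.8% over 52 exons and no factor at any. Among far internal exons with a GC content of 55 to 60%, Pol II lay at 6.82% and KAP1 at 8.33%. Cdk9 lay at 13.3% of them, Larp7 at 26.4% and Hexim1 at 27.0%.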

How the data were processed

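Chromatin immunoprecipitation was measured by sequencing in 1 library per antibody. Bowtie 1.1 aligned the reads to hg19 and MACS2 called the peaks, per the submitters' processing notes. The MACS2 version, control library, duplicate handling, settings and read depth are not stated there. Pol II peaks were deposited in the narrow and the others in the broad layout. The fold, a ratio of a peak over its background, and the −log10 of its p and q are the authors' deposited values. Folds describe and rank peaks within a list and are not compared between lists.

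Exons, introns and starts came from GENCODE release 44 on GRCh37, and sequence from the GRCh37 reference. A region was occupied when a peak overlapped it by at least 1 bp. Each exon was compared with 1 intron piece of equal length in its gene. Shares carry exact 95% intervals, and differences an interval from the pairs in which only 1 region was occupied. Named exons were those of highest fold, 1 per gene: 6 each for Pol II and KAP1 and 3 for each other list. Named genes were the 6 with most exons under all 5 lists and, in each of 7 gene lists, the 3 of at least 5 exons with the highest Pol II share; some of these genes are not reported here. Python 3.11.15, numpy 2.4.6, scipy 1.17.1, pysam 0.24.0, samtools 1.23.1 and matplotlib 3.10.9 were used, and the overlap counts were tested on simulated data. The regions, gene lists and alternatives were chosen with earlier results of these data known. Other settings of peaks, regions and GC matching were tried, some of them, and the gene lists without PLEC or COL5A1, added after the data were seen.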

Additional observations from a re-analysis of the deposited data

How the results depend on the processing

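The share of exons exceeded that of intron pieces in 18 of 18 alternatives for Pol II (0.258 to 2.65 points) and for KAP1 (0.184 to 3.52), in 17 of 18 for Larp7 and for Cdk9, and in 8 of 18 for Hexim1 (-5.48 to 2.11). The exceptions for Larp7 and Cdk9 came within deciles of the regions' own GC content, where the differences were -3.01 points for Larp7, -0.734 for Cdk9, -5.48 for Hexim1, 0.69 for Pol II and 0.787 for KAP1. Within deciles of the GC content of the 1 kb around they were 0.569, 1.09, -1.06, 1.62 and 1.76 in the same order.
The choice of peaks moved the values in all lists. Keeping a −log10 q of 5 or more gave 1.85 points for Pol II, 0.184 for KAP1, 2.11 for Hexim1 and 0.161 for Cdk9, with 8542 KAP1 and 5294 Cdk9 peaks left. The 20000 peaks of highest −log10 p gave 0.258, 0.71, 1.05, 0.675 and 0.751 points, listed as Pol II, KAP1, Larp7, Hexim1, Cdk9. Peak middles widened by 250 bp on each side gave 1.77, 1.89, 0.408, -1.17 and 1.09 points in that last order, and peak middles inside the region gave 1.77, 1.25, 1.07, 0.399 and 1.00. An overlap of at least 50% of the shorter gave 2.28 for KAP1, 1.99 for Larp7 and 0.5 for Hexim1.
Other choices of regions follow. For Pol II, KAP1, Larp7 and Cdk9 the differences were 2.43, 2.84, 1.96 and 2.11 points beyond 2 kb from a start, 2.31, 2.65, 2.04 and 2.09 with exons of coding transcripts only, 2.28, 2.63, 2.21 and 2.15 with upstream intron pieces, 1.69, 1.98, 1.42 and 1.53 in pairs of 50 to 300 bp, and 1.73, 2.12, 1.42 and 1.63 without chromosome 19. Beyond 10 kb they were 1.78 for Pol II and 2.17 for KAP1. Intron pieces at least 500 bp from exons gave 2.65, 3.52, 3.09, 0.388 and 2.92 points in the order of the lists, and wholly coding exons gave 2.4, 2.77, 2.13, 0.197 and 2.2. With genes weighted equally the values were 2.5 for Pol II, 2.86 for KAP1 and -0.702 for Hexim1. Without regions under another gene KAP1 had 2.57, and without last exons of any transcript Larp7 had 2.00 and Hexim1 0.0311.
Leaving out regions in repeats was not run, since the reference carried no marking of repeats. No paired analysis was possible because each antibody had 1 library, so libraries could not be paired; each exon was paired with its intron piece throughout. Depth is unknown, so an exon without a peak is not shown to be free of the factor.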
